A study of Mus musculus with 3 samples.

Results

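Keratins are the intermediate filament proteins of epithelial cells, and their genes were read on arrays of mouse cells labelled as embryonic stem cells. The members were all genes whose array accession belonged to a symbol made of Krt and a number, with keratin-associated proteins (Krtap, Krtcap, Krtdap) left out. The array held 53 such genes on 64 probes, of 20659 named genes on 27234 named probes. The gene table lists 54 keratin symbols, and Krt83 was matched by no probe. They were sorted by the tissue in which each is best known into 5 simple keratins, 19 stratified keratins, 9 keratins of the inner root sheath and companion layer of the hair follicle, 14 hair keratins and 6 others.

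The study asked how gene expression differs between wildtype mESCs, LIFR KO mESCs and gp130 KO mESCs. The cytokine LIF acts through LIFR, and gp130 (gene Il6st) is the chain with which LIFR signals and which other receptors of the IL-6 family also use. Each genotype had 1 array, the culture is described only as standard, and strain, clone, sex and the kind of deletion were not given in the sources used here. With 1 array a group there was no test, and every difference is a difference between a pair of arrays, where fewer cells of a type and less RNA per cell cannot be told apart.

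Keratin filaments are obligate heteropolymers of an acidic type I chain and a basic type II chain. Simple epithelia use mainly the type II keratin Krt8 with the type I keratin Krt18, and these are also the first keratins of the mouse embryo, made in the trophectoderm. Stratified epithelia use Krt5 with Krt14 in the basal layer and Krt1 with Krt10 above it, whereas the cysteine-rich hair keratins build the hair shaft.

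The labelled cell type was checked against its markers. Of 14 genes on a list of embryonic stem cell markers, 10 were well above background on all 3 arrays, while Sox2, Zfp42, Dppa3 and Fgf4 were so on none. Of all named genes 63.6% were so on all 3, and the count does not establish the cell type. The gene of the pluripotency factor Oct4, Pou5f1, had a processed signal of 31.2 in wildtype, 22.7 in the LIFR knockout and 20.3 in the gp130 knockout. Such signals are dim, since the lowest detected ones were 10.5, 16.7 and 9.66 and the 75th percentiles 664, 749.9 and 652 on these arrays. Of 18 markers of simple epithelium other than keratins, 17 were well above background on all 3 arrays, Cldn6 being the other. Neither targeted gene told the genotypes apart, with Lifr at 34.9, 29.97 and 34.7 and Il6st at 329, 369 and 299 in wildtype, LIFR knockout and gp130 knockout, and whether their probes lie in the deleted parts is not given in the sources used here. The arrays are therefore called by their labels. Well above background were 58.3% to 65.5% of the 39429 probes. The LIFR knockout array carried a patch of stray signal, with 249 spots whose local background was over 2 times the array's median, against 2 on the wildtype and 7 on the gp130 knockout array, and 1 keratin spot, that of Krt2, lay in it.

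Sequences before the annotated starts are shown for both partners of the simple keratin pair, Krt8 and Krt18, and for Krt75 and Krt31, the keratins with the largest measured lower ratios of the LIFR knockout over wildtype. Each is the 250 bases before the RefSeq start in assembly GRCm38.p6, written on the gene's own strand. They lie at chr15:102004343-102004592 (minus strand, Krt8), chr15:102027966-102028215 (plus strand, Krt18), chr15:101573905-101574154 (minus strand, Krt75) and chr11:100050552-100050801 (minus strand, Krt31). Capitals mark TATAAA (the TATA box), GGGCGG (the GC box) and TTCNNNGAA (the core letters of a STAT site), each searched on both strands, and these did not overlap one another here.
Krt8: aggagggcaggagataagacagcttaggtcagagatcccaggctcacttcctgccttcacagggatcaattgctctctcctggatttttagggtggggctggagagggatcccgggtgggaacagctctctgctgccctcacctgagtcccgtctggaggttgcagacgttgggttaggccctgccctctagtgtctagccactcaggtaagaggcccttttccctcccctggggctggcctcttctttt
Krt18: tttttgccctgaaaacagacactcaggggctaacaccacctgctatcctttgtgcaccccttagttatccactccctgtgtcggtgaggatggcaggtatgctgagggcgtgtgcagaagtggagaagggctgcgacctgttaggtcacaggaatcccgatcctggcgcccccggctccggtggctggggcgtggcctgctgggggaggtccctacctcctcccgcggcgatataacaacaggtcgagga
Krt75: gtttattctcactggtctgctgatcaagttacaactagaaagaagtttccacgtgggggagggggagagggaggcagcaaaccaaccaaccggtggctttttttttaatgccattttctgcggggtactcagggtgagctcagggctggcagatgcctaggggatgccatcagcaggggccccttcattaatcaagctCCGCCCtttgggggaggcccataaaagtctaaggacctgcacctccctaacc
Krt31: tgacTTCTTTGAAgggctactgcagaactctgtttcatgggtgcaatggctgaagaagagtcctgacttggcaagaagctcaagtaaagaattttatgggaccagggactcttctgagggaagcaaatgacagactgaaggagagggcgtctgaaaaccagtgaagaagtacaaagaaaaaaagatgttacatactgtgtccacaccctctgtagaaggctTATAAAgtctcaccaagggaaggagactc

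Krt8 and Krt18 held none of the 3 motifs in these windows. In Krt8 the letters TATAAA began 1 base before the annotated start and ran across it. Krt75 held GGGCGG, read on the opposite strand as CCGCCC, 52 bases before its start. In Krt31, TATAAA began 29 bases and TTCTTTGAA 246 bases before the start. The table held windows for 36 of the keratin genes, and TATAAA was in those of 17 (47.2%), against 12.4% of all 32851 windows of the same length. By contrast GGGCGG was in 2 of 36 (5.56%), Krt7 and Krt75, against 32.7% of all windows. TTCNNNGAA was in 4 of 36 (11.1%), among them Krt31 and Krt42, against 7.02%. Of the 14 keratin genes with a window that were well above background on all 3 arrays, 3 held TATAAA (Krt10, Krt31 and Krt73), and so did 10 of the 18 that were well above background on none. A match of letters describes the window and is not a binding site.

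About 1 keratin gene in 2 was detected, and simple keratins were detected more often than hair keratins. A gene was counted as detected when its probe was well above background by the scanner's flag, and a gene with several probes was represented by its brightest. On the wildtype array 27 of 53 keratin genes (50.9%) were detected, against 69.6% of all named genes. The LIFR knockout array had 23 (43.4%), against 64.5%, and the gp130 knockout array 29 (54.7%), against 70.8%. The lowest detected signal was 16.7 on the LIFR knockout array, against 10.5 in wildtype and 9.66 in the gp130 knockout. A dim signal called on those arrays could thus be missed on the LIFR knockout array. In all, 30 of 53 keratin genes (56.6%) were detected on at least 1 array, against 72.9% of all named genes. Of the 53, 23 (43.4%) were detected on all 3 arrays, where 63.6% of all named genes were, and 7 on 1 or 2 arrays, which leaves 23 detected on none. By type the counts were alike, with 11 of 28 type I and 12 of 25 type II genes detected on all 3 arrays.

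**Figure D1:**
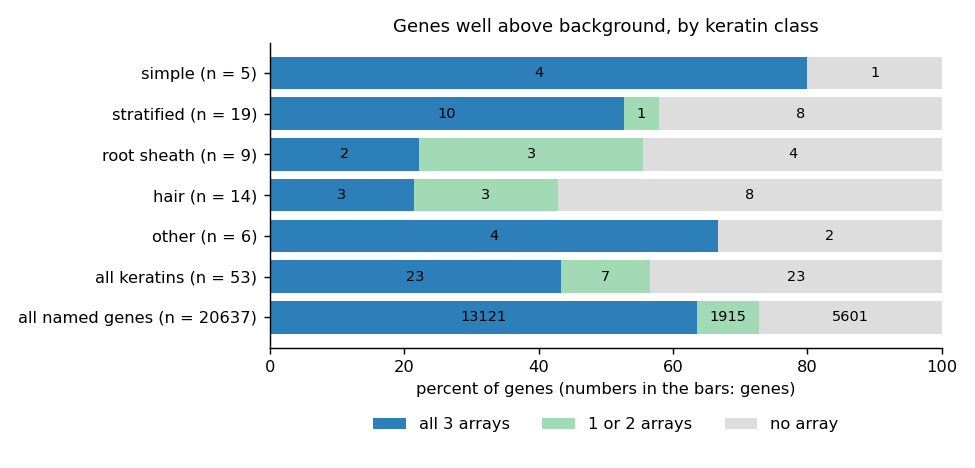
Percent of genes detected on all 3 arrays, on 1 or 2 arrays and on no array (horizontal axis), by keratin class, with the number of genes in each piece of a bar. Of the simple keratins 4 of 5 were detected on all 3 arrays, and of the hair keratins 3 of 14.

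Among simple keratins, 4 of 5 (80.0%) were detected on every array. The stratified class had 10 of 19 (52.6%) detected on all 3 arrays and 1 more, Krt15, on 2. Of the 9 root sheath keratins 2 were detected on all 3 arrays, Krt73 and Krt75, and 3 on 1 or 2 arrays. The hair class had 3 of 14 (21.4%) on all 3 arrays, Krt31, Krt81 and Krt86, and 3 on 1 array. No array detected Krt20, the simple keratin of intestinal epithelium. The stratified keratins Krt1, Krt4, Krt6a, Krt12, Krt24, Krt76, Krt77 and Krt78 were not detected either, so that the suprabasal epidermal keratin Krt1, the mucosal keratin Krt4 and the corneal keratin Krt12 were all below the call. The other genes detected on no array were the root sheath keratins Krt25, Krt26, Krt28 and Krt71, the hair keratins Krt32, Krt33a, Krt36, Krt39, Krt40, Krt82, Krt84 and Krt87, and Krt23 and Krt90. The probes of all 23 undetected keratins read between 2.11 and 11.8 on the wildtype, 3.35 and 11.7 on the LIFR knockout and 1.94 and 10.5 on the gp130 knockout array, which sets a limit on detection and does not show absence.

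Simple keratins differed little between the genotypes. Signals are processed signals in scanner units, and each log2 ratio is taken after subtracting the array's 75th percentile, which was 664 in wildtype, 749.9 in the LIFR knockout and 652 in the gp130 knockout. Ratios carry the scanner's own error, which was 0.20 for the bright keratins and covers neither culture nor hybridisation. Signals are comparable only within a gene, since probes differ in their response. Many keratins are close in sequence, and binding of related transcripts to a probe was not tested.

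Krt18, the type I chain of simple epithelia, read 39533 in wildtype, 50636 in the LIFR knockout and 41452 in the gp130 knockout. It was highest on the LIFR knockout array before scaling, and after scaling the log2 ratio over wildtype was 0.18 ± 0.20 (scanner error) in the LIFR knockout and 0.10 ± 0.20 in the gp130 knockout. Its type II partner Krt8 read 6514, 7976 and 7499 on the same arrays, a log2 ratio of 0.12 ± 0.20 and 0.23 ± 0.20. Both partners were thus within 1.2-fold of wildtype in each knockout.

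Krt7, a type II keratin of ducts and other simple epithelia, read 3176, 3586 and 3173 in wildtype, LIFR knockout and gp130 knockout, with log2 ratios of 0.0002 and 0.03 over wildtype. Krt19, the small type I keratin that lacks the usual tail domain, read 1574, 1757 and 1546, with log2 ratios of -0.02 in the LIFR knockout and 0.0015 in the gp130 knockout. No simple keratin differed beyond the 95% range of the scanner error in any of the 3 comparisons. The median log2 ratio of the 4 measured simple keratins was 0.06 in the LIFR knockout and 0.06 in the gp130 knockout, where that of all genes was -0.03 and 0.03. Scaling on each array's median set the first at 0.22, beside 0.10 for all genes, and the normexp correction fitted with the stray spots turned it to -0.32.

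**Figure D2:**
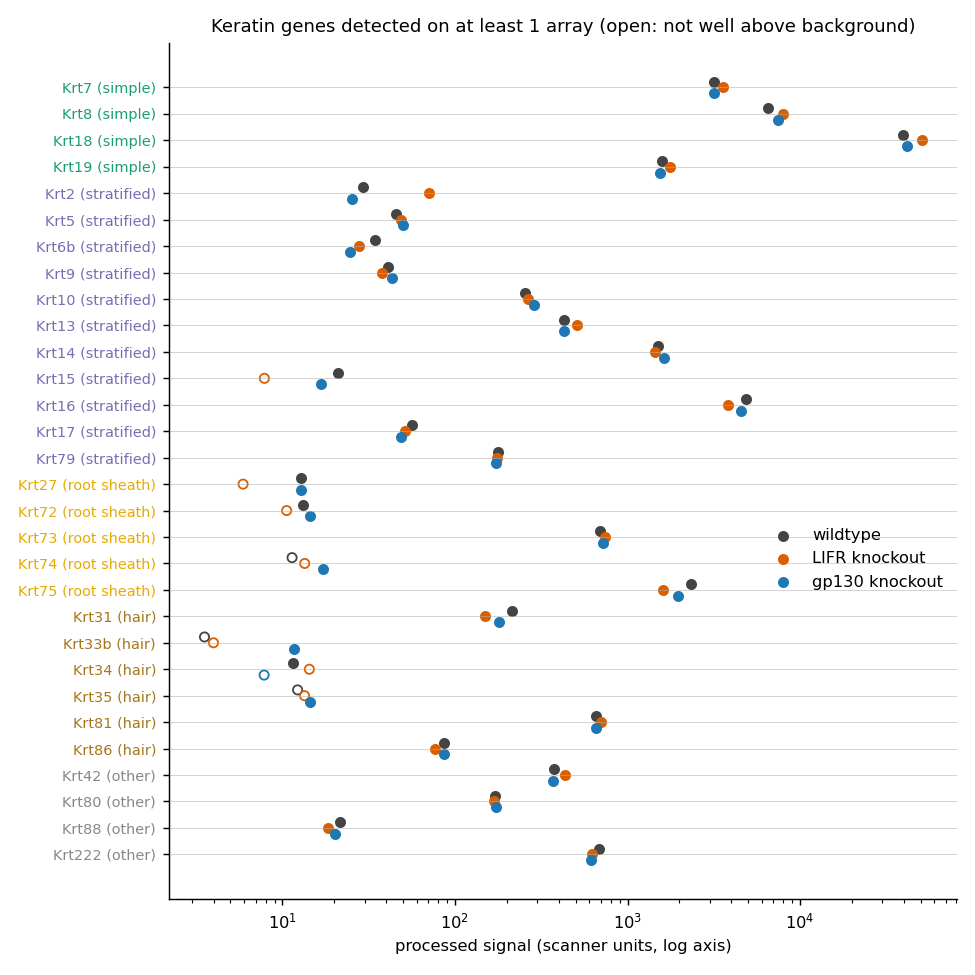
Processed signal in scanner units on a log axis for the 30 keratin genes detected on at least 1 array, with 1 point for each array, open where the probe was not well above background. Only points in the same row can be compared, and in most rows the 3 arrays lie close together, with Krt2 on the LIFR knockout array the widest gap among genes detected on all 3.

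The basal epidermal pair was present on every array. Krt14, the type I keratin of basal keratinocytes, read 1493 in wildtype, 1436 in the LIFR knockout and 1634.5 in the gp130 knockout, with log2 ratios over wildtype of -0.23 ± 0.20 and 0.16 ± 0.20. Krt5, its type II partner, read 45.6, 48.4 and 49.7, with log2 ratios of -0.09 ± 0.25 and 0.15 ± 0.23. Neither partner stood beyond the 95% range of the scanner error from wildtype. The other Krt5 probe was not well above background on any array. Krt15, a basal keratin also known from hair follicle stem cells, read 21.03 in wildtype and 16.8 in the gp130 knockout, with a log2 ratio of -0.30 ± 0.36. In the LIFR knockout, at 7.86, it was not well above background. Set against the lowest detected signal of that array, it was at least 1.42-fold lower than in wildtype, scanner error aside.

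Krt16 and Krt17 are keratins of stressed and regenerating epidermis and of hair follicles, as is Krt6b. Krt16 read 4844 in wildtype, 3816 in the LIFR knockout and 4539 in the gp130 knockout. It was lowest on the LIFR knockout array, with a log2 ratio of -0.52 ± 0.20 over wildtype, or 1.43-fold lower, while the gp130 knockout stood at -0.07 ± 0.20. Krt17 read 56.1, 51.1 and 48.4, with log2 ratios of -0.31 ± 0.24 and -0.18 ± 0.22. Krt6b read 34.5, 27.7 and 24.6, with log2 ratios of -0.49 ± 0.33 in the LIFR knockout and -0.46 ± 0.28 in the gp130 knockout. For Krt17 and Krt6b these ratios lay within the 95% range of the scanner error. The second Krt6b probe read 24.3 on the wildtype and 14.6 on the gp130 knockout array and was not well above background on the LIFR knockout array.

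Of the keratins of differentiated layers, Krt10, the type I keratin of suprabasal epidermis, read 254 in wildtype, 264 in the LIFR knockout and 286 in the gp130 knockout, with log2 ratios of -0.12 ± 0.21 and 0.20 ± 0.20. The other Krt10 probe read 47.9, 48.7 and 41.01, lowest on the gp130 knockout array, where the first was highest. Krt9, the keratin of palm and sole skin, read 41.0, 37.9 and 43.2, with log2 ratios of -0.29 ± 0.26 and 0.10 ± 0.23. Krt13, the type I keratin of mucosal stratified epithelia, read 429, 512 and 427, with log2 ratios of 0.08 ± 0.20 and 0.02 ± 0.20. Krt79, a type II keratin, read 178, 175 and 172, with log2 ratios of -0.20 ± 0.21 and -0.02 ± 0.21. None of these 4 genes stood beyond the 95% range of the scanner error in either knockout.

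Krt2, a type II keratin of the upper epidermis, had the widest difference of any keratin. It read 29.4 in wildtype, 71.2 in the LIFR knockout and 25.2 in the gp130 knockout. The log2 ratio of the LIFR knockout over wildtype was 1.099 ± 0.25, or 2.14-fold, and that of the gp130 knockout over the LIFR knockout was -1.30 ± 0.26. Its spot on the LIFR knockout array lay in the stray signal, with a local background of 54.0 against an array median of 23.5, and without such spots Krt2 had no value. The other Krt2 probe was not well above background on any array, at 2.53 in wildtype, 14.6 in the LIFR knockout and 2.25 in the gp130 knockout. Its local background was also highest on the LIFR knockout array, at 35.5 against 22.0 in wildtype and 21.0 in the gp130 knockout. The part of the stray signal in the Krt2 difference was not tested.

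Among keratins measured on both arrays, the largest lower ratio over wildtype was that of a root sheath keratin. Krt75, the type II keratin of the companion layer between the inner and outer root sheath, read 2338.5 in wildtype, 1614 in the LIFR knockout and 1954 in the gp130 knockout. It was lowest on the LIFR knockout array, with a log2 ratio of -0.71 ± 0.20, or 1.64-fold lower than wildtype, and -0.23 ± 0.20 in the gp130 knockout. The inner root sheath keratin Krt73 read 694, 744 and 720.4, with log2 ratios of -0.07 ± 0.20 and 0.08 ± 0.20. Krt72 and Krt27, also of the inner root sheath, were near the limit of detection. Krt72 read 13.2 in wildtype and 14.5 in the gp130 knockout, with a log2 ratio of 0.16 ± 0.39, and Krt27 12.9 on both, a log2 ratio of 0.03 ± 0.44. Neither was well above background on the LIFR knockout array, where the lowest detected signal was 16.7, against 10.5 in wildtype and 9.66 in the gp130 knockout. Krt74 was detected on the gp130 knockout array alone, at 17.1. Over its dim wildtype signal of 11.4 the log2 ratio was 0.62 ± 0.49, or 1.54-fold, which is not a lower limit.

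Among hair keratins, Krt31, a type I keratin of the hair cortex, read 213 in wildtype, 149 in the LIFR knockout and 179 in the gp130 knockout. As with Krt75, the LIFR knockout array was lowest and the wildtype array highest, with log2 ratios over wildtype of -0.69 ± 0.21, or 1.62-fold lower, and -0.22 ± 0.21. The type II hair keratin Krt81 read 656, 702 and 659, with log2 ratios of -0.08 ± 0.20 and 0.03 ± 0.20. Krt86, another type II hair keratin, read 86.2, 76.9 and 86.7, with log2 ratios of -0.34 ± 0.22 and 0.03 ± 0.21. Another 3 genes of the class were detected on 1 array each and close to its lowest detected signal. Krt34 read 11.5 on the wildtype array, at least 1.17-fold above the gp130 knockout. Krt33b, at 11.7, was detected on the gp130 knockout array, at least 1.13-fold above wildtype. Krt35, at 14.5, was also detected there, with a log2 ratio of 0.27 ± 0.43 over its dim wildtype signal of 12.2.

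The remaining class held keratins outside these groups. Krt42, a type I keratin, read 374 in wildtype, 433 in the LIFR knockout and 369 in the gp130 knockout, with log2 ratios of 0.03 ± 0.20 and 0.01 ± 0.20. Krt80, a type II keratin, read 169.5, 167 and 172, with log2 ratios of -0.19 ± 0.21 and 0.05 ± 0.21. Krt222 read 680.2, 623 and 617, with log2 ratios of -0.30 ± 0.20 and -0.11 ± 0.20. Krt88 read 21.7, 18.5 and 20.1, with log2 ratios of -0.41 ± 0.38 and -0.08 ± 0.30. None of these 4 differed from wildtype beyond the 95% range of the scanner error. The second Krt222 probe was not well above background on any array.

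In the LIFR knockout against wildtype, 1 keratin was at least 2-fold higher and none lower. A ratio could be taken for 27 keratin genes, those detected on at least 1 of the pair of arrays, and 4 of these were bounds. Krt2 alone was at least 2-fold higher, where 2.62% of 14551 genes were, and 0 were at least 2-fold lower, where 1.62% were. At 1.5-fold, Krt31 and Krt75 were lower, 2 of 27, against 7.53% of all genes, and Krt2 higher, against 6.41%. Of the 23 keratins detected on both arrays, 3 were lower beyond the 95% range of the scanner error, Krt75, Krt31 and Krt16, against 12.3% of all genes, and 1 was higher, Krt2, against 10.1%. Scaled to each array's median, 2 remained lower, Krt75 at -0.55 and Krt31 at -0.53, while Krt16 at -0.36 was within that range. Under normexp fitted with the stray spots, 10 keratins were higher and 4 lower, and leaving out the stray spots left 0 higher. The shares of called keratins are counts of a few genes and lie near the background.

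The smaller ratios of this comparison leaned to the lower side among keratins other than the simple ones. Of 19 such genes detected on both arrays, 16 (84.2%) had a log2 ratio below 0, against 53.9% of all genes, and of the 4 simple keratins 1 had. The median log2 ratio was -0.20 for the measured keratins other than simple ones and -0.12 for all measured keratins, against -0.03 for all genes. Class medians were -0.23 for stratified, -0.04 for root sheath, -0.21 for hair and -0.25 for other keratins. Scaled to each array's median, the median of the keratins other than simple ones was -0.04 and 12 of 19 ratios were below 0, and under the normexp correction fitted with the stray spots the median turned to 0.37 with 6 below 0. Fitted without those spots, normexp gave a median of -0.13. The LIFR knockout array also had fewer probes detected in all (58.3% against 64.3%), and the embryonic stem cell markers had a median log2 ratio of -0.33 over wildtype there, with 7 of 10 below 0. The part of either in the lean was not tested.

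**Figure D3:**
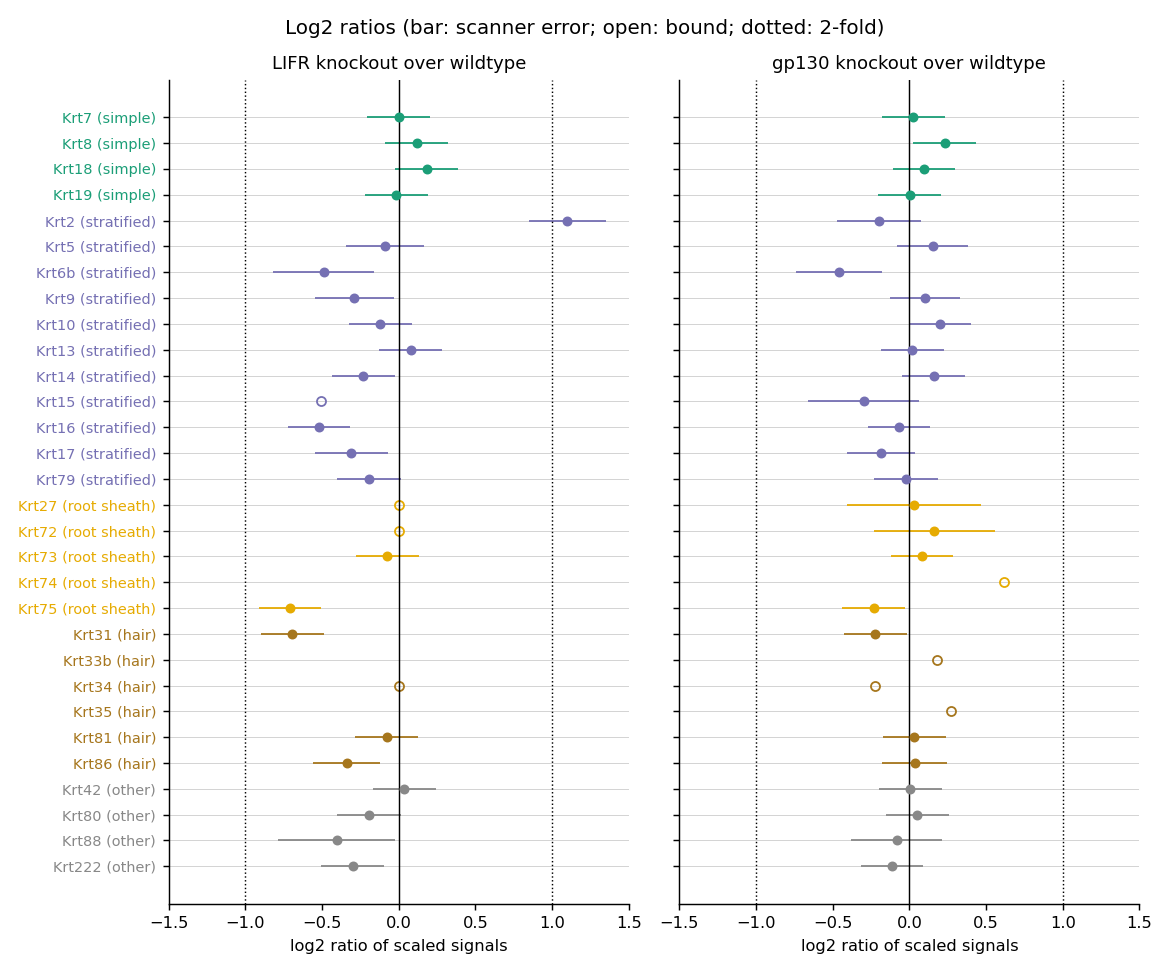
Log2 ratios of scaled signals over wildtype for the keratin genes detected on at least 1 array, LIFR knockout on the left and gp130 knockout on the right, with the scanner error as a bar and the 2-fold lines dotted. Open circles are bounds, drawn at 0 where the bright value did not exceed the floor. On the left most keratins other than simple ones lie below 0, a lean that turns over under normexp fitted with the stray spots, and on the right they lie on both sides.

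In the gp130 knockout against wildtype no keratin reached 2-fold. Ratios were measured for 30 keratin genes, with 0 at least 2-fold higher, where 0.98% of 14903 genes were, and 0 at least 2-fold lower, where 0.785% were. At 1.5-fold, 1 was higher, Krt74 as a ratio to a dim wildtype signal, against 3.5% of all genes, and 0 lower, against 3.11%. Beyond the 95% range of the scanner error there were 0 higher and 0 lower among the 26 keratins detected on both arrays, against 5.47% and 4.99% of all genes, and 1 was lower where a gene's detected probes were averaged. Ratios ran from -0.46 (Krt6b) to 0.23 (Krt8) among these 26. Of them 10 (38.5%) were below 0, against 45.7% of all genes. The median log2 ratio was 0.03 for all measured keratins and 0.03 for all genes, with 0.06 for simple keratins and 0.02 for the others.

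The knockouts were also set against each other, and this comparison shares its arrays with the other 2. Of 29 keratins with a ratio of the gp130 over the LIFR knockout, 0 were at least 2-fold higher, where 1.29% of 14765 genes were, and 1 was at least 2-fold lower, Krt2, where 2.05% were. At 1.5-fold, 0 were higher, against 5.49%, and Krt2 was the 1 lower, against 4.64%. Beyond the 95% range of the scanner error, 3 of 23 were higher, Krt75 at 0.48 ± 0.20, Krt31 at 0.47 ± 0.21 and Krt16 at 0.45 ± 0.20, against 8.8% of all genes. Scaled to each array's median, 0 were higher, with Krt75 at 0.33, Krt31 at 0.32 and Krt16 at 0.30. Krt2 was the 1 lower, against 7.04%, and 0 were lower without the stray spots. Under normexp fitted with the stray spots, 6 were higher and 10 lower, and fitted without them 2 were higher and 0 lower. Of the 23, 4 (17.4%) had a log2 ratio below 0, where 39.9% of all genes had. The median log2 ratio was 0.16 for all measured keratins and 0.05 for all genes, and scaled to each array's median these were 0.006014 and -0.07.

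Keratin genes lie in a type I cluster on mouse chromosome 11 and a type II cluster on chromosome 15, with the type I gene Krt18 at the end of the second next to Krt8. On chromosome 11, 10 of 27 genes were detected on all 3 arrays and 15 on at least 1. On chromosome 15, 13 of the 26 genes on the array were detected on all 3 and 15 on at least 1. The longest run of detected neighbours on chromosome 11 held 8 genes, from Krt13 through Krt15, Krt19, Krt9, Krt14, Krt16 and Krt17 to Krt42, with stratified and simple keratins side by side. A run of 6 undetected genes reached from Krt12 to Krt33a. On chromosome 15 the longest run of detected genes held 4, from Krt74 to Krt2, and that of undetected genes 4, from Krt1 to Krt4. Some keratins overlap other annotated genes, among them Krt12 and A830036E02Rik, and Krt80 and Mir1941, which an array probe may not separate.

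**Figure D4:**
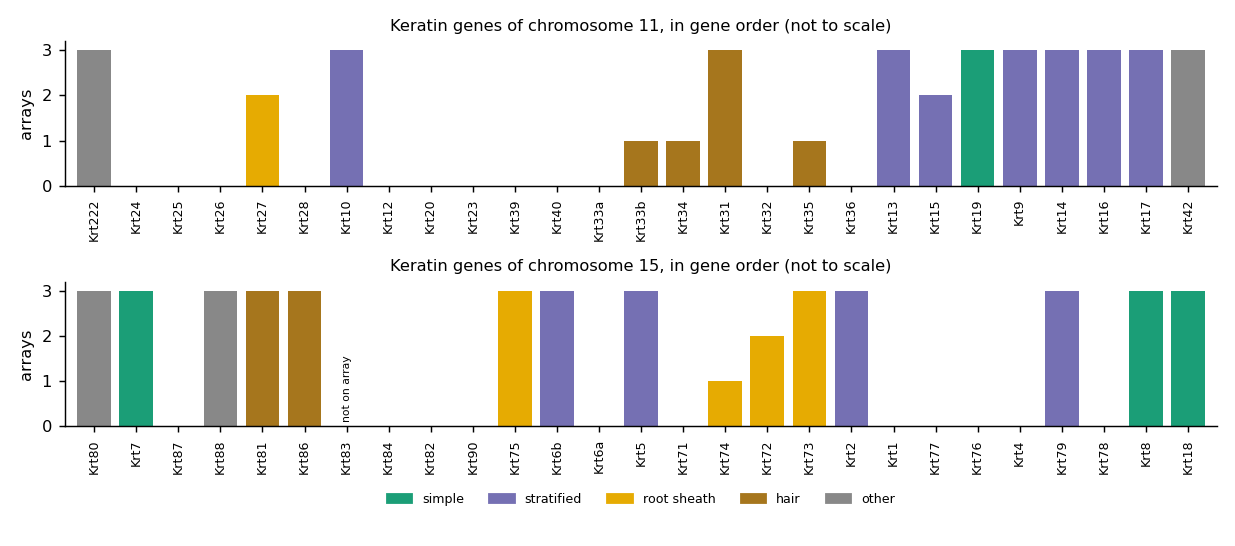
Number of arrays (0 to 3) on which each keratin gene was detected, in gene order along chromosome 11 (top) and chromosome 15 (bottom), coloured by class and not drawn to distance. The 8 genes from Krt13 to Krt42 at the end of the chromosome 11 cluster were each detected on at least 1 array.

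Desmosomes and plakins anchor keratin filaments at cell junctions. Of 20 such genes, 16 were detected on all 3 arrays, where 63.6% of all named genes were. Another 4 were detected on none, the desmosomal cadherin genes Dsg1a, Dsg3, Dsc1 and Dsc3, which are best known from stratified epithelia. None of the 16 was 2-fold different from wildtype, where 0.785% to 2.62% of all genes were in each direction. The median log2 ratio was 0.16 in the LIFR knockout and 0.14 in the gp130 knockout. Pkp3, a plaque protein of desmosomes, read 14231 in wildtype, 11169 in the LIFR knockout and 15746 in the gp130 knockout, with log2 ratios of -0.52 and 0.17. Plec, the linker of keratins to hemidesmosomes, read 13220.0, 18780.0 and 13058, with log2 ratios of 0.33 and 0.01. Perp, a desmosomal membrane protein, read 13902, 16237 and 14192, with log2 ratios of 0.05 and 0.06. In the LIFR knockout 3 of the 16 were higher beyond the 95% range of the scanner error, named after their values were seen: the plakins Ppl (0.88) and Evpl (0.43) and Dsp (0.44), the gene of desmoplakin, where 10.1% of all genes were. Pkp3 was the 1 lower, against 12.3%. In the gp130 knockout 2 of the 16 were higher, Ppl at 0.57 and Dsp at 0.44, against 5.47% of all genes, and the difference between the knockouts was not tested.

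Genes of the cornified envelope, which is built in terminally differentiating keratinocytes, were detected in part. Of 20 on the array, 9 were detected on all 3 arrays, where 63.6% of all named genes were. Another 8 were detected on none, among them Ivl, the involucrin gene. No member was shown to reach 2-fold from wildtype, and 3 of the 12 ratios in the LIFR knockout were bounds. Tgm3, a crosslinking enzyme, read 2068 in wildtype, 1723 in the LIFR knockout and 2362 in the gp130 knockout, with log2 ratios of -0.44 and 0.22. Lor, the gene of loricrin, read 252, 207 and 271, with log2 ratios of -0.46 and 0.13. The lipoxygenase gene Aloxe3 read 203, 255 and 229, with log2 ratios of 0.16 and 0.20. Hrnr, the gene of hornerin, read 26.3 and 31.5 on the wildtype and gp130 knockout arrays and was not well above background on the LIFR knockout array, a log2 ratio of at most -0.83 over wildtype.

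The lower side again held most members in the LIFR knockout, as it did for the keratins other than simple ones. Of 9 cornified envelope genes detected on both arrays, 8 had a log2 ratio below 0, against 53.9% of all genes. Of the 9, 5 were lower beyond the 95% range of the scanner error, against 12.3%, and the median was -0.45 over all 12 measured, against -0.03 for all genes. In the gp130 knockout 6 of 12 were below 0, against 45.7%, and the median was -0.01, against 0.03. The count of 5 was 3 after quantile normalisation and in the authors' series matrix, 1 when scaled to each array's median and 0 under normexp without the stray spots. Under normexp fitted with the stray spots the lean turned over, with 1 of the ratios below 0, 7 genes higher and 1 lower beyond the scanner error.

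Other intermediate filament genes serve as a comparison within the same protein family. Vim, the gene of vimentin, read 73043 in wildtype, 87779 in the LIFR knockout and 83486 in the gp130 knockout, with log2 ratios of 0.09 and 0.22. Lmna, which encodes the nuclear lamins A and C, read 46098, 50057 and 46063, with log2 ratios of -0.06 and 0.03. Nes, the gene of nestin, read 5976, 5078 and 4978, with log2 ratios of -0.41 and -0.24. Of 16 genes 8 were detected on all 3 arrays, against 63.6% of all named genes, and 3 on none. Gfap, the glial filament gene, read 42.9 and 55.4 on the wildtype and gp130 knockout arrays. On the LIFR knockout array, at 18.4, it was not well above background, and this dim signal gave a log2 ratio of -1.39 ± 0.42 over wildtype. Nefl, the light neurofilament gene, was detected on the LIFR knockout array alone, at 26.1, at least 1.14 above wildtype on the log2 scale, and its spot there had a local background of 47.0.

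Transcription factors linked to keratin expression held the 1 gene of these lists that was at least 2-fold higher than wildtype in both knockouts. Grhl3, a grainyhead factor of epidermal differentiation, read 66.8 in wildtype, 354 in the LIFR knockout and 148 in the gp130 knockout, with log2 ratios of 2.23 and 1.18. Under normexp the latter was 0.69. Of 23 such genes, 16 were detected on all 3 arrays, against 63.6% of all named genes, and the median log2 ratio was 0.08 and -0.11. Gata3, a factor of trophectoderm and skin, read 8287, 10003 and 11565, with log2 ratios of 0.10 and 0.51. Ovol2 and Sox9, regulators of epithelial fate, stayed within 1.3-fold of wildtype on both arrays. Tfap2c was detected on the wildtype array alone, at 22.1, and its log2 ratio was at most -0.58 in the LIFR and at most -1.17 in the gp130 knockout.

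Proteins that modify or bind keratins gave 16 of 17 genes detected on all 3 arrays, against 63.6% of all named genes. None was 2-fold different from wildtype, where 0.785% to 2.62% of all genes were in each direction, and the medians were -0.03 and 0.03. Ywhae, a 14-3-3 protein, read 62926 in wildtype, 74098 in the LIFR knockout and 72540.0 in the gp130 knockout, with log2 ratios of 0.06 and 0.23. The kinase genes Akt1 and Plk1 had log2 ratios of 0.00 and 0.20, and of 0.09 and 0.31.

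**Figure D5:**
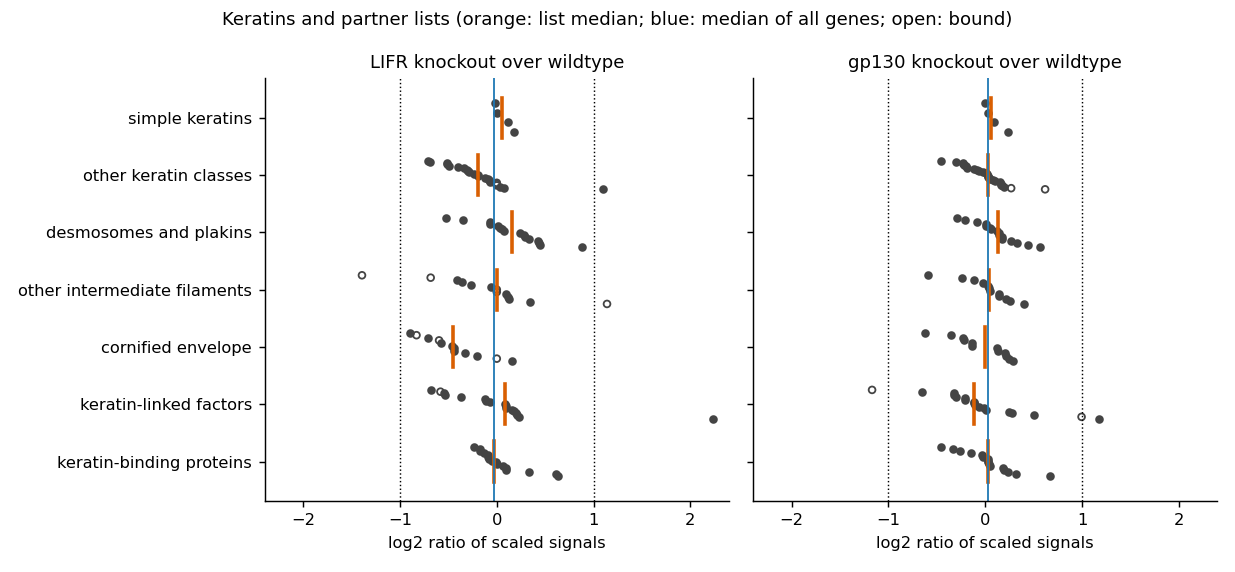
Log2 ratios over wildtype of the keratin classes and of 5 lists of related genes, LIFR knockout on the left and gp130 knockout on the right, 1 point a gene and open for a bound. Orange bars are list medians, the blue line is the median of all genes, and the dotted lines mark 2-fold. The cornified envelope median is -0.45 on the left and -0.01 on the right.

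Markers of other cell types were read beside the keratins, and their part in the keratin values was not tested. Each summed level is given as a multiple of the array's 75th percentile, in the order wildtype, LIFR knockout and gp130 knockout. It adds probes of unlike response and gives the brightest the most weight, so median log2 ratios over wildtype are given beside it. Beside the detection count of each list stands the 63.6% of all named genes that were detected on all 3 arrays. Of 10 markers of basal keratinocytes outside the keratins, all 10 were detected on all 3 arrays, with sums of 69.2, 68.5 and 66.5. Their median log2 ratio was -0.04 in the LIFR knockout, with 6 of 10 below 0, against 53.9% of all genes. In the gp130 knockout it was -0.14, with 7 of 10 below 0, against 45.7%.

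Simple epithelium markers summed to 73.9, 71.7 and 74.7, with medians of -0.07 and 0.03 in the LIFR and gp130 knockouts. In the LIFR knockout 10 of the 17 detected were below 0 (58.8%), against 53.9% of all genes. Beyond the 95% range of the scanner error 1 was lower, Esrp1, a splicing regulator of epithelial cells, at -0.72, against 12.3% of all genes. Beyond it 3 were higher, among them Cdh1 at 0.20 ± 0.06, against 10.1%. The errors of averaged repeat spots, as for Cdh1, are smaller than those of a single spot, so smaller ratios pass. In the gp130 knockout Cdh1 at 0.13 ± 0.06 was the 1 higher, against 5.47%, and 0 were lower, against 4.99%. In the LIFR knockout 2 of the 17 were at least 2-fold higher than wildtype, where 2.62% of all genes were. These were the tight junction gene Cldn4 at a log2 ratio of 1.14 and the protease gene Prss8 at 1.46. In the gp130 knockout they stood at 0.24 and 0.32, and 0 of the 17 were 2-fold higher, against 0.98% of all genes.

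Of 10 trophectoderm markers 5 were detected on all 3 arrays and Cdx2, Elf5 and Ascl2 on none. Their sums were 13.7, 14.5 and 19.1, and their medians 0.00 and 0.04. Of 12 markers of extraembryonic endoderm 7 were detected on all 3 arrays and Sox7, Sox17, Lama1 and Ttr on none, with sums of 45.8, 44.9 and 42.3. Their median was -0.14 in the LIFR knockout and -0.01 in the gp130 knockout. In the LIFR knockout 6 of the 7 detected on both arrays were below 0, against 53.9% of all genes.

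Fibroblast markers were detected on all 3 arrays in 6 of 13 cases, with Pdgfrb, Lum, Twist2 and Fbn1 on none, and summed to 3.54, 3.48 and 4.07. In the LIFR knockout the median of the 9 measured was -0.05, and 4 of the 6 detected on both arrays were below 0, against 53.9% of all genes. Beyond the 95% range of the scanner error 2 of these 6 were higher there, against 10.1% of all genes. They were the collagen gene Col1a1 at a log2 ratio of 1.69 ± 0.21 and Pdgfra at 0.27 ± 0.06. Acta2, the gene of smooth muscle actin, was the 1 lower, at -0.40 ± 0.07, against 12.3%. In the gp130 knockout 7 of 9 were above 0 and 2 below, where 45.7% of all genes were below 0. The median was 0.31. Beyond the 95% range of the scanner error 3 of the 9 were higher, against 5.47% of all genes, and 0 lower, against 4.99%. They were Dcn, the gene of decorin, at 1.05 ± 0.32, Pdgfra at 0.57 ± 0.06 and Col1a1 at 0.43 ± 0.21. Dcn was dim, at 16.5 in wildtype and 33.6 in the gp130 knockout, where the lowest detected signals were 10.5 and 9.66.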

How the data were processed

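The authors deposited, per the labels, 1-colour Agilent arrays of Cy3-labelled cRNA, 1 for each of 3 genotypes. The design was 026655 (build mm9) and the software Feature Extraction 11.0.1.1 (protocol GE1_1100_Jul11), per the file headers, whereas the submitters' processing notes name version 9.1. The deposited intensity is the scanner's background-subtracted processed signal, not normalised between arrays. The deposited log2 values of the series matrix, used as an alternative, had equal column medians of 5.38, and their method is not given in the sources used here. The 3 arrays shared 1 scan time.

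Outlier spots (97, 222 and 138) were dropped, none being saturated, and repeat spots were averaged. The scanner error of such a mean was divided by the square root of the number of spots. Log2 signals had the array's 75th percentile over non-control spots subtracted. Accessions were matched without versions to a RefSeq table (GRCm38.p6), which named 69.1% of 39429 probes, so no array coordinates are given. Each gene was read from its probe with the highest mean. Where a probe was well above background on 1 array of a pair, the ratio is a bound against the higher of its dim signal and the lowest signal of a probe all of whose spots were well above background (10.5, 16.7 and 9.66). A bound was set to 0 where the bright value did not exceed it, and such values entered the medians. Where the dim signal was the higher, the value is the plain ratio and not a limit, as for Krt74, Krt35 and Gfap over wildtype. Repeat spots gave a ratio of single spots a 95% half-width of 0.141 to 0.148 on the log2 scale. The number of arrays limits precision.

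Every detected keratin is named. Of each related list, up to 4 members past 2-fold and the 3 brightest are named. Members and lists were chosen with earlier results of these data known, and nothing here is independent support for them. The steps in Python 3.11.15 (numpy 2.4.6, pandas 2.3.3) and R 4.3.3 (limma 3.58.1, for normexp) were tested on simulated data. There were 10 alternatives planned and 2 added after the data were seen.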

Additional observations from a re-analysis of the deposited data

How the results depend on the processing

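No paired analysis was possible because each genotype had 1 array. Of 117 keratin counts and medians recomputed, 100 held, and 17 moved by more than the 1.5 times or the spread allowed. Krt2, the 1 keratin at least 2-fold higher in the LIFR knockout and lower in the gp130 over the LIFR knockout, left both counts at 0 when spots in stray signal were left out, and also when normexp was fitted without them. Normexp fitted with those spots gave 7 keratins in each count, and it turned the median of the gp130 over the LIFR knockout to 0.00, while scaling to each array's median gave 0.006014. The keratin median of the LIFR knockout over wildtype, counted as held, went from -0.12 to 0.00 under both. With no filter on dim probes, 2 keratins were higher and 5 lower in the LIFR knockout, 3 higher and 3 lower in the gp130 knockout, and 4 higher in the gp130 over the LIFR knockout. At 1.5-fold, 2 were lower in the LIFR knockout and 1, Krt74, higher in the gp130 knockout. By the call positive and significant, 43 keratins were detected on the wildtype and 38 on the LIFR knockout array. The normexp fit without stray spots and the percentile over probe means were chosen after seeing the data.

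Scaling to the median moved the median log2 ratio of all genes in the LIFR knockout from -0.03 to 0.10. The share of higher genes among all 2-fold calls there was 61.8% by the 75th percentile, 77.5% by the median and 71.8% after quantile normalisation and in the series matrix, 97.2% under normexp fitted with the stray spots, and for the gp130 over the LIFR knockout 38.7%, 24.9%, 28.97% to 29.5% and 1.43%. For the gp130 knockout over wildtype it was 55.5% and, under normexp, 23.3%. Signals near background limit what the dim keratins can show, and the causes of these shifts other than the choices named were not tested.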

Other observations

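Keratin-associated proteins, which crosslink keratin filaments in the hair shaft, lie outside the keratin genes described above. Of 51 Krtap genes on the array, 27 (52.9%) were detected on at least 1 array, against 72.9% of all named genes. Of the 51, 19 were detected on all 3, where 63.6% of all named genes were, and 24 on none. None was at least 2-fold different in any of the 3 comparisons, where 0.785% to 2.62% of all genes were in each direction. Krtap10-10 read 9349 in wildtype, 10081 in the LIFR knockout and 5409 in the gp130 knockout, with log2 ratios over wildtype of -0.07 and -0.76. Krtap4-8 read 1225, 1412 and 1456, with log2 ratios of 0.03 and 0.28. These 2 genes were chosen after their values were seen, and the similarity of Krtap genes to each other could let a probe read several members, which was not tested.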
